A study of Sus scrofa with 8 samples.

Results

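The hepatic transcripts of 8 genes that move cholesterol out of cells, remodel high-density lipoprotein (HDL) and take lipoproteins up were studied in pigs with nonalcoholic steatohepatitis (NASH). They were *ABCA1* and *ABCG1* (efflux), *LCAT*, *PLTP*, *LIPC* and *LPL* (plasma enzymes and transfer), and *SCARB1* and *LRP1* (uptake). They were taken by symbol from the 20430 genes of the expression table, each matched a single row, and all 8 passed the filter on low values (0.1 FPKM or more on average over the pools), which left 14780 genes for testing. FPKM counts the fragments of a gene relative to its length and to the size of the library, so that levels can be set between genes as far as the length used holds.

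Large White x Landrace pigs, 24 males in all, were fed a steatotic diet (rich in cholesterol, cholate, saturated fat and fructose, and poor in methionine and choline) and then kept on it for a further month without (control group) or with 0.5% squalene (squalene group), 12 animals per diet. Equal amounts of total liver RNA from 3 animals were joined to give 4 pools per diet, and the pool was the replicate. Every animal of both groups had received the steatotic diet, so that the control group is not a healthy liver, and no lean animal or female was measured. A pool averages its 3 animals, so the p-values refer to the spread between pools, not between single pigs. Whole liver holds many cell types, and in it fewer cells of a type and less RNA per cell cannot be told apart.

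Reverse cholesterol transport carries surplus cholesterol from tissues to the liver for loss in bile. ABCA1 loads phospholipid and cholesterol on lipid-poor apolipoprotein A-I, and in the liver this is a main source of nascent HDL. LCAT esterifies the cholesterol of the particle, PLTP and hepatic lipase (LIPC) reshape it, SCARB1 takes its cholesteryl esters into the hepatocyte, and LRP1 clears remnants. LPL hydrolyses the triglyceride of chylomicrons and very-low-density lipoprotein in capillaries, mainly of fat and muscle, and releases surface material to HDL.

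None of the 8 transcripts differed between the diets beyond the spread between pools. The estimates lay above 0 in 2 and below 0 in 6 genes, with a median log2 difference of -0.06 against -0.01 over all genes tested. With limma, 0 of 8 genes passed an adjusted p of 0.05 and 0 of 8 an unadjusted p of 0.05, where 0% and 4.36% (645 of 14780) of all tested genes did. The values of the groups overlapped for each of the 8 genes. Over all genes, the 2 groups did not overlap for 2.67%. The limma adjusted p was 0.9997 for each gene, and exact permutation p-values, two-sided over the 70 assignments of the pools, ranged from 0.457 to 0.943.

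As to the pools, the authors' added counts amounted to 76.75 M fragments for control and 75.93 M for squalene, a mean of 19.19 and 18.98 M per pool, while the depth of each single pool is not known. Squalene pool 1 stood apart slightly, with a mean correlation of 0.977 with the other pools, where the others had 0.981 to 0.984. Albumin, the main secreted protein of hepatocytes, took 4.36% to 9.04% of the summed FPKM, and the median log2 FPKM of the pools differed by up to 0.21. The hepatocyte markers were abundant in every pool (summed FPKM of 35139 to 63020 in control and 38313 to 62091 in squalene). None of the 10 lists of cell type markers held a gene called between the diets. As 0 of all 14780 tested genes were called, this does not show a like makeup. Estimates lay above 0 in 8 of 9 stellate and fibroblast, 5 of 5 biliary and 4 of 7 hepatocyte rows. They did so in 2 of 10 macrophage, 2 of 7 endothelial, 1 of 6 T and NK cell, 1 of 4 B and plasma cell and 1 of 4 neutrophil rows. For the adipocyte and red cell rows it was 1 of 2 and 0 of 3. The adipocyte marker *ADIPOQ* averaged under 0.1 FPKM. The measured adipocyte rows together, however, had 6.62 to 10.64 FPKM in control and 6.72 to 9.97 in squalene.

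**Figure D1:**
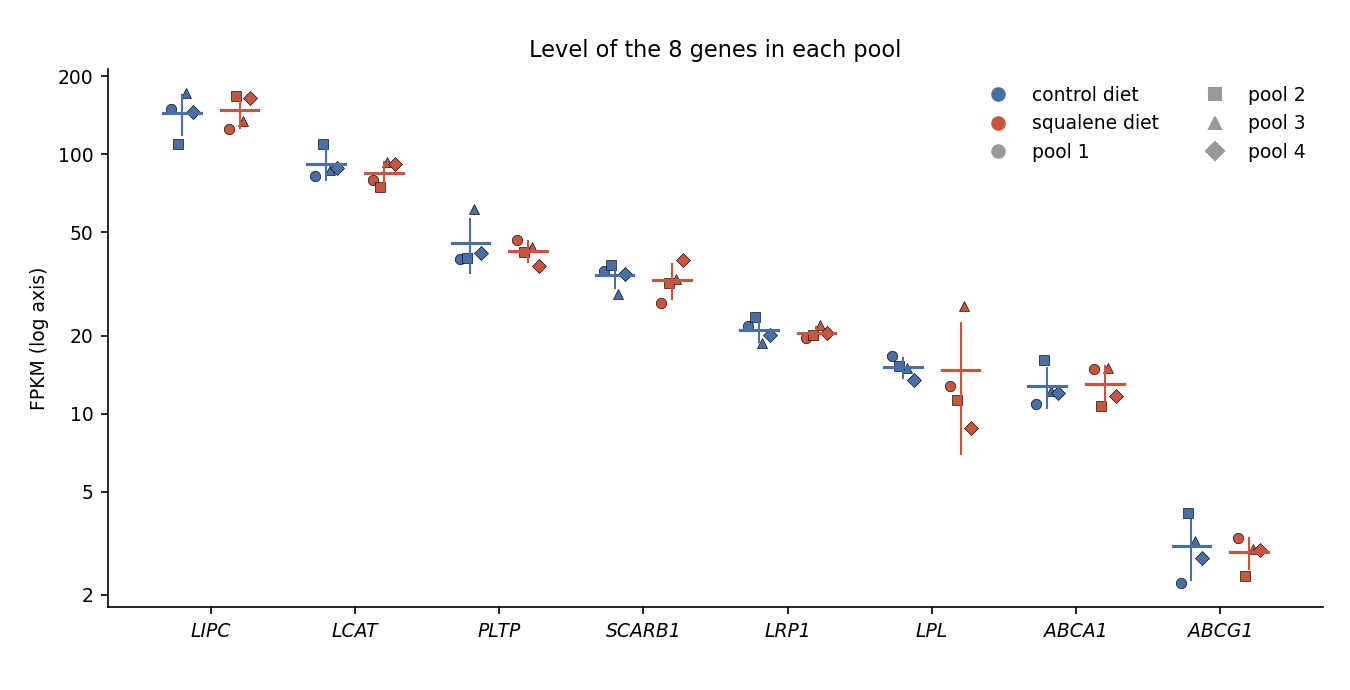
Level of each gene in FPKM (log axis) in the 4 control pools (blue) and the 4 squalene pools (red), with the marker shape giving the pool number, horizontal lines the means and vertical lines 1 SD. The blue and red values overlap for all 8 genes, the levels run from about 3 FPKM for *ABCG1* to 146 for *LIPC*, and *LPL* in squalene pool 3 (25.95) lies above the other *LPL* values.

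The genes of cholesterol efflux came first. *ABCA1* (chromosome 1, bases 246144277 to 246278492 of Sscrofa11.1, minus strand, 51 exons) is known in human and mouse to be switched on by the sterol-activated liver X receptors (LXR). These bind with RXR to a direct repeat of the hexamer AGGTCA with 4 bases between, written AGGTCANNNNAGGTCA. For each coding gene, the window from 250 bases before to 50 after the start of a curated RefSeq transcript, or of the gene where there was none, was searched on both strands, allowing 3 mismatches in all and at most 2 per half-site, a limit set after the sequence of *ABCA1* had been seen. Of 20654 windows, 14.9% held such a match. The match is thus common and does not by itself show a binding site, and whether LXR binds there was not tested. In *ABCA1* it started at position 10, in the annotated first exon. The sequence, from the RefSeq assembly, is shown for the gene that leads the covariation described later, with the match, which reads on the opposite strand, in capitals:
ABCA1 chr1:246278461-246278490, minus strand: caggcttTGACCGATAGTAACCCctgtgct
The window of *ABCG1* held no match, and that of *LCAT* held 2 that overlapped each other.

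*ABCA1* had 10.91, 16.07, 12.19 and 11.99 FPKM in control pools 1 to 4 and 14.92, 10.66, 14.97 and 11.74 in squalene pools 1 to 4. Control pool 2 was the highest and squalene pool 2 the lowest, and both groups spanned nearly the same range. The means were 12.8 ± 2.26 and 13.1 ± 2.21 FPKM (SD, n = 4 pools each). The log2 difference, squalene minus control, was 0.03 ± 0.15 (SE). Its 95% interval ran from a fall of -19.5% to a rise of 29.7%.

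*ABCG1* (chromosome 13, bases 205561897 to 205628428, plus strand, 15 exons) exports cholesterol to particles that already carry lipid, and it is rich in macrophages. It had 2.23, 4.13, 3.24 and 2.77 FPKM in the control pools and 3.32, 2.37, 3.02 and 2.98 in the squalene pools. Control pools 1 and 2 held its lowest and highest value, so that the squalene values lay inside the control range. The means were 3.09 ± 0.805 and 2.92 ± 0.398 FPKM (SD, n = 4 each), with a log2 difference of -0.05 ± 0.19 (SE) and an interval from -27.9% to 28.5%. *ABCG1* was the rarest of the 8 transcripts, with 1521 and 1416 fragments added over the 4 pools of control and squalene. The counting error of a pool with the mean count was 5.22%, below its coefficient of variation of 19.8% over the 8 pools.

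Next came the enzyme and the transfer protein that act on the circulating particle. *LCAT* (chromosome 6, bases 28550356 to 28553561, minus strand, 10 exons) is made chiefly by the liver and turns the free cholesterol of HDL into ester. Its levels were 82.23, 109.49, 86.75 and 88.55 FPKM in control and 79.83, 74.53, 93.06 and 91.55 in squalene. Control pool 2 was again the highest pool and squalene pool 2 the lowest. The means of 91.8 ± 12.1 and 84.7 ± 9.02 FPKM (SD, n = 4 each) gave a log2 difference of -0.11 ± 0.12 (SE), with an interval from -22.9% to 11.09%. Its exact permutation p of 0.457 was the smallest of the 8.

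*PLTP* (chromosome 17, bases 48089789 to 48101604, minus strand, 16 exons) transfers phospholipid between lipoproteins and helps to convert HDL into larger and smaller particles. It had 39.47, 39.80, 61.55 and 41.48 FPKM in the control pools and 46.84, 41.94, 43.78 and 37.16 in the squalene pools. Control pool 3 stood above the other 7 pools, which lay within 37.16 to 46.84 FPKM. The means were 45.6 ± 10.7 and 42.4 ± 4.05 FPKM (SD, n = 4 each), and the log2 difference was -0.08 ± 0.15 (SE; interval -25.1% to 19.2%). Without control pool 3 the difference became 0.07. Exons of *PLTP* overlap those of *CTSA*, the lysosomal cathepsin A, and it is not given here how reads of such bases were shared out. *CTSA* had 88.10 FPKM in control pool 3 and 78.81 to 82.97 in the other control pools. Its highest value, 98.31, was in squalene pool 3, where *PLTP* had 43.78. Whether shared reads had a part in the *PLTP* value of control pool 3 was not tested.

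The lipases of the vessel wall followed. *LIPC* (chromosome 1, bases 113433684 to 113604139, minus strand, 12 exons) encodes hepatic lipase, made by hepatocytes and held on the sinusoid surface, where it hydrolyses phospholipid and triglyceride of HDL and remnants. It was the most abundant of the 8 transcripts. Its human promoter is known to bind the hepatocyte factor HNF1, whose motif is here GTTAATNATTAAC with at most 1 mismatch on either strand. It was held by 0.17% of the 20654 windows. The match of *LIPC* is shown for that rarity, in capitals. It started at position -54 from the start of the curated transcript (base 113583726), which lies 20413 bases inside the annotated gene:
LIPC chr1:113583759-113583788, minus strand: tttaaaagGTTAATTATTAATgggcaacct

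*LIPC* had 149.46, 109.55, 171.64 and 145.93 FPKM in control and 125.25, 167.62, 134.19 and 165.28 in squalene. Control pool 2 was the lowest and control pool 3 the highest, with all squalene pools between them. The means were 144 ± 25.7 and 148 ± 21.5 FPKM (SD, n = 4 each). The log2 difference was 0.05 ± 0.15 (SE), and its interval ran from -18.5% to 30.7%. Some exon bases of *LIPC* overlap those of the uncharacterized *LOC102158936*, which had 0.06 to 0.45 FPKM.

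*LPL* (chromosome 14, bases 4104761 to 4134964, plus strand, 11 exons) is a gene of fat and muscle that adult hepatocytes express little. Its human promoter carries an octamer, ATGCAAAT, which was found in 1.46% of windows on either strand without a mismatch. The pig window held 2, at positions -249 and -88 from the start of the curated transcript (base 4104814), which lies 53 bases inside the annotated gene. They are shown because *LPL* varied most between pools, with the octamer in capitals, the later match reading on the opposite strand:
LPL chr14:4104564-4104593, plus strand: aATGCAAATaggcttcatgagaaagtaaat
LPL chr14:4104715-4104744, plus strand: tgatgaggtttATTTGCATatttccaatca

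*LPL* had 16.72, 15.22, 14.95 and 13.47 FPKM in control and 12.76, 11.28, 25.95 and 8.77 in squalene. The control pools lay close together, while squalene pool 3 held the highest value and the other squalene pools the 3 lowest. The means were thus alike (15.1 ± 1.33 and 14.7 ± 7.69 FPKM, SD, n = 4 each) and the SDs were not. The log2 difference was -0.16 ± 0.27 (SE), with the widest interval of the 8, from -41.3% to 36.6%. Without squalene pool 3 it was -0.47 (limma adjusted p = 0.858), and without squalene pool 4 it was 0.04. The variation of *LPL* over the 8 pools was 34.3%, against a counting error of 3.03% at its mean count. Among genes whose mean lay within 2-fold of it, 4.57% had a larger residual SD.

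Other transcripts of squalene pool 3 were given beside it. *CD36*, a scavenger receptor and fatty acid transporter, was also highest there, at 35.69 FPKM, where the other pools had 12.34 to 26.27. The summed biliary markers, on the contrary, were lowest in squalene pool 3 (5.69 FPKM) and highest in squalene pool 4 (17.37). Over the 8 pools, the mean log2(FPKM + 0.1) of these markers correlated with *LPL* by r = -0.90 (rho = -0.93, exact p = 0.00233 and 0.00223). Adjusted over the 80 relations of marker lists and genes, these exact p-values became 0.187 and 0.179. Without the pair of pools farthest from the median of this mean log2 level, squalene pools 3 and 4, r was -0.84. Whether the makeup of the tissue had a part in the level of *LPL* was not tested.

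The receptors closed the series. *SCARB1* (chromosome 14, bases 28301421 to 28393568, plus strand, 13 exons) encodes SR-BI, which takes up cholesteryl esters from HDL without taking in the particle. It had 35.44, 37.60, 28.95 and 34.69 FPKM in control and 26.68, 31.88, 33.00 and 38.98 in squalene. Squalene pools 1 and 4 held the lowest and the highest value. The means were 34.2 ± 3.69 and 32.6 ± 5.05 FPKM (SD, n = 4 each), with a log2 difference of -0.07 ± 0.13 (SE; interval -22.2% to 16.3%).

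*LRP1* (chromosome 5, bases 22435636 to 22519276, plus strand, 93 exons) is a large endocytic receptor that clears chylomicron remnants and many other ligands. It had 21.74, 23.65, 18.74 and 20.14 FPKM in control and 19.52, 20.08, 22.02 and 20.55 in squalene. Control pools 2 and 3 were the extremes, and the squalene values lay between them. The means were 21.1 ± 2.11 and 20.5 ± 1.07 FPKM (SD, n = 4 each), with a log2 difference of -0.03 ± 0.10 (SE). Its interval, from -16.0% to 13.9%, was the narrowest of the 8. Its variation over the pools was 7.58%, and 84.1% of genes of like level had a larger residual SD.

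**Figure D2:**
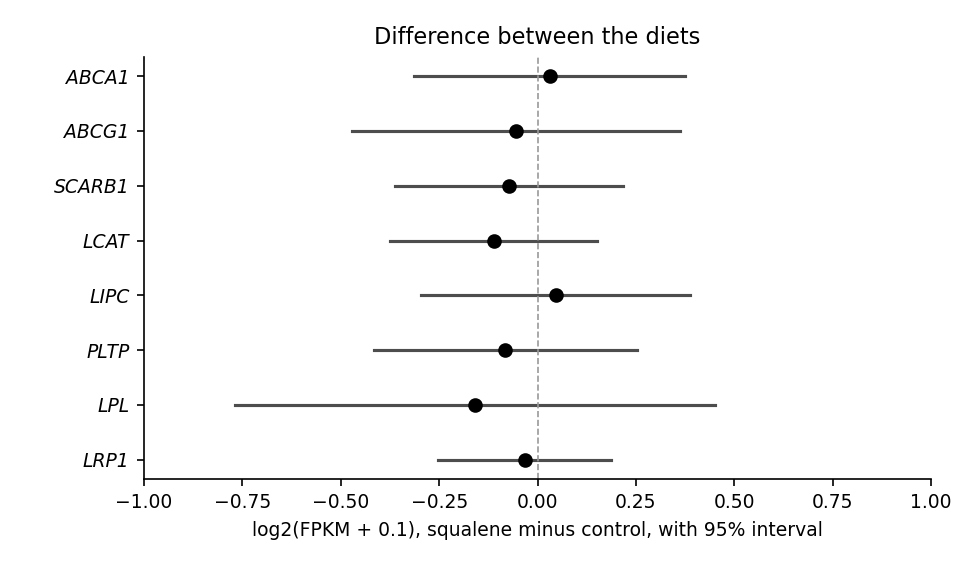
Difference between the diets for each gene, as log2(FPKM + 0.1) of squalene minus control (points) with its 95% interval from limma (lines), 4 pools per diet. All 8 intervals hold 0, that of *LRP1* is the narrowest and that of *LPL* the widest.

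The order of the levels was compared within pools, since FPKM is per length. From the top it was *LIPC*, *LCAT*, *PLTP*, *SCARB1*, *LRP1*, *LPL*, *ABCA1* and *ABCG1*. Of the 7 neighbouring pairs, 6 passed an exact sign-flip permutation test over the 8 pools (two-sided, adjusted over the 7 pairs). The order came from the same pools, so the test shows only that the pools agree on a step. Levels also rest on the gene length used. The length given with the authors' counts was 3937 bases for *LPL* and 1632 for *LIPC*, against 3000 and 2019 annotated exon bases, the widest gaps among the 8 genes. *LIPC* exceeded *LCAT* in 8 of 8 pools, 1.65-fold on average, although in control pool 2 the levels were nearly equal (109.55 and 109.49 FPKM). The steps from *LCAT* to *PLTP* (2.02-fold), *SCARB1* to *LRP1* (1.60-fold) and *ABCA1* to *ABCG1* (4.32-fold) also held in 8 of 8 pools. For these 4 steps the exact p was 0.00781, the smallest that 8 pools allow, and 0.0137 after adjustment. *PLTP* exceeded *SCARB1* 1.31-fold and *LRP1* exceeded *LPL* 1.46-fold in 7 of 8 pools (exact p = 0.0156, adjusted 0.0182). The pools that broke the order were squalene pools 4 and 3, respectively. *LPL* and *ABCA1* did not differ beyond their spread (1.11-fold, 5 of 8 pools, exact p = 0.328).

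**Figure D3:**
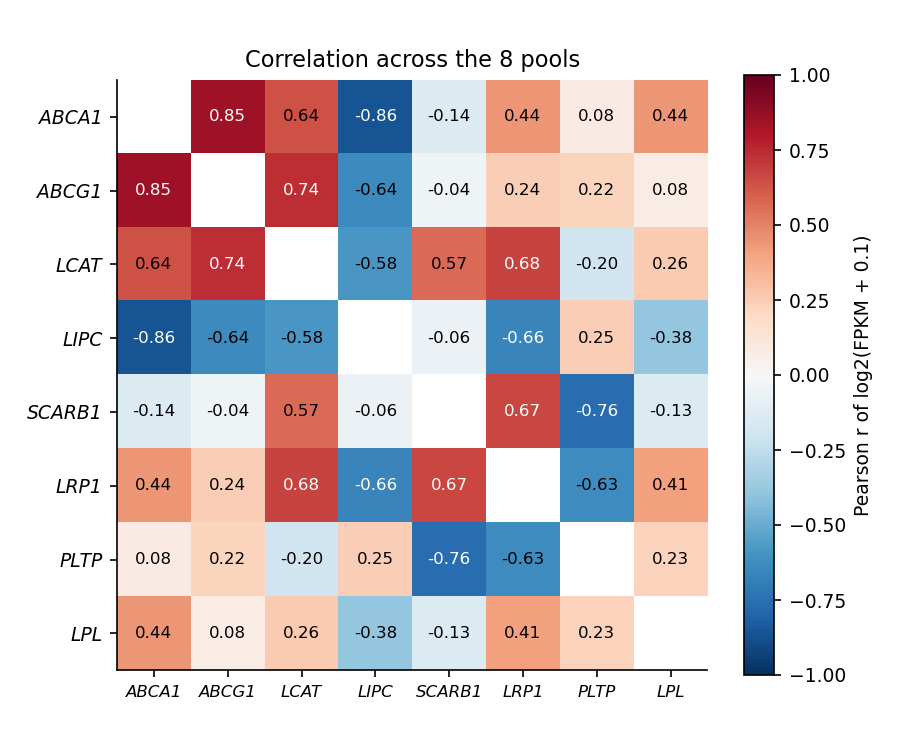
Pearson r of log2(FPKM + 0.1) over the 8 pools for each pair of the 8 genes, from -1 (blue) to 1 (red). *ABCA1* with *ABCG1* (0.85) is the deepest red, and *ABCA1* with *LIPC* (-0.86) the deepest blue, followed by *SCARB1* with *PLTP* (-0.76).

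Covariation between the genes was measured over the 8 pools of both diets, and pools of 1 diet alone were too few for it. Of the 28 pairs, 0 passed an adjusted p of 0.05 by exact permutation of Pearson's r, and 4 had an unadjusted p under 0.05. The correlations were positive in 16 pairs and negative in 12. An r of at least 0.8 in size was found in 2 of 28 pairs, where 2.31% of all pairs of tested genes had one (1.63% positive and 0.678% negative). The 3 pairs with the largest r are described here.

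*ABCA1* and *ABCG1*, both known LXR targets, had the largest positive correlation of the 28 pairs, r = 0.85 and rho = 0.88 (exact p = 0.00504 and 0.00724, or 0.0979 and 0.101 adjusted over the 28 pairs). Control pool 2 was highest for both, and control pool 1 and squalene pool 2 were the lowest pools for both. Without control pool 2 and squalene pool 3, the pools farthest from the median of *ABCA1*, r was 0.81, and with the mean of each diet removed it was 0.86. Scaling the pools to the same median gave 0.87. Seen from *ABCA1*, 0.264% of the other tested genes correlated at least as strongly in the same direction, and 0.237% seen from *ABCG1*. The mean log2 level of the macrophage markers correlated with *ABCG1* by r = 0.75 (exact p = 0.0285, 0.641 adjusted over 80 relations) and with *ABCA1* by 0.64. These values fell to 0.47 and 0.36 without control pools 1 and 2. The part of macrophages in this correlation was not tested.

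*ABCA1* and *LIPC* had the largest negative correlation, r = -0.86 and rho = -0.71 (exact p = 0.00699 and 0.0576, or 0.0979 and 0.323 adjusted). The 3 pools with the most *ABCA1* (control pool 2, squalene pools 1 and 3) were the 3 pools with the least *LIPC*. Without the pair of pools farthest from the median of *ABCA1*, r was -0.73, and with the diet means removed -0.88. In the same direction, 0.203% of the other tested genes correlated at least as strongly with *ABCA1*, and 0.582% with *LIPC*. It depended on the scaling, however: with the pools set to the same median it was -0.49 (adjusted p = 0.760). *LIPC* itself correlated with the median of the pools by r = -0.62 (rho = -0.57, exact p = 0.106), and *ABCA1* by 0.28.

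*SCARB1* and *PLTP* also correlated negatively, with r = -0.76 and rho = -0.93 (exact p = 0.0215 and 0.00223, or 0.201 and 0.0625 adjusted). Squalene pool 4 had the most *SCARB1* and the least *PLTP*, while control pool 3 and squalene pool 1 had the least *SCARB1* and the most *PLTP*. Without those last pools, which are the farthest from the median of *SCARB1*, r was -0.87, and with the diet means removed -0.83. Median scaling brought it to -0.32 (adjusted p = 0.843). At least as strong a negative correlation was found for 2.33% of the other tested genes with *SCARB1* and for 2.94% with *PLTP*. The mean log2 level of the T and NK cell markers correlated with *SCARB1* by r = -0.75 and with *PLTP* by 0.70 (exact p = 0.0321 and 0.0543, or 0.641 and 0.740 adjusted). Without control pool 2 and squalene pool 4 these were -0.43 and 0.65, and the part of these cells was not tested.

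**Figure D4:**
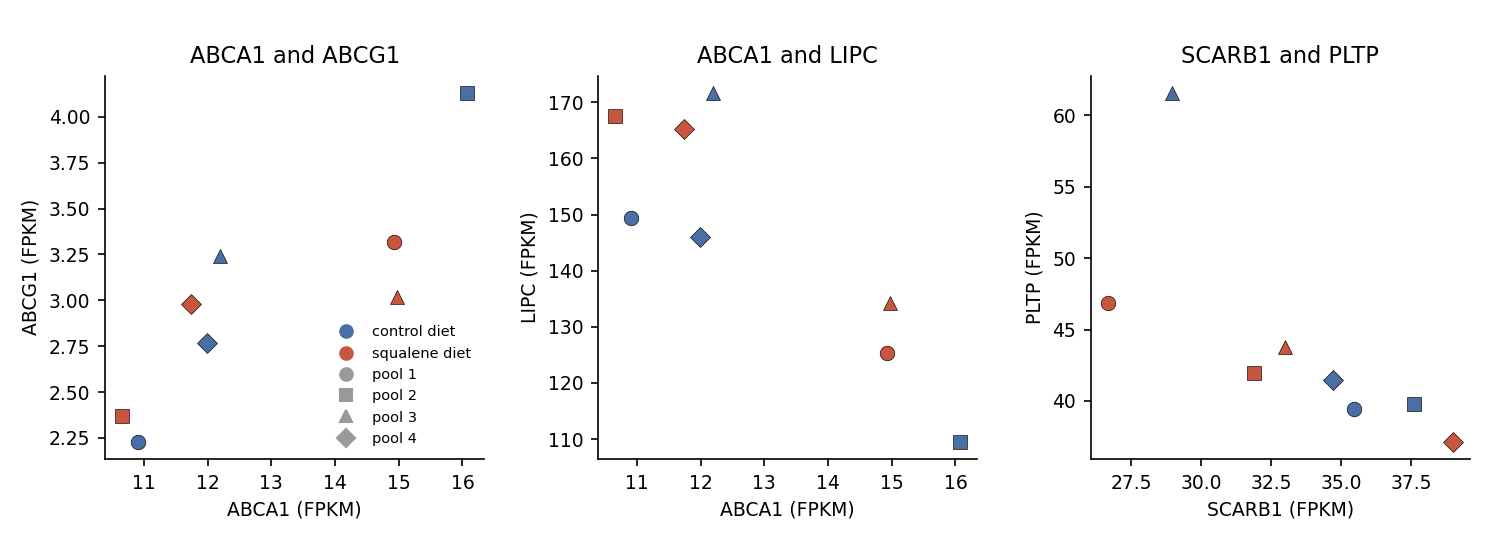
FPKM of *ABCG1* and of *LIPC* against *ABCA1*, and of *PLTP* against *SCARB1*, each point 1 pool, blue for control and red for squalene, with the marker shape giving the pool number. *ABCG1* runs upward with *ABCA1* (r = 0.85 on the log2 scale), the other panels run downward (-0.86 and -0.76), and control and squalene pools are mixed along each trend.

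Some other pairs rested on a single pool. *ABCG1* and *LCAT* had r = 0.74 (rho = 0.45, exact p = 0.0365 and 0.268, or 0.256 and 0.535 adjusted), which fell to 0.45 without control pool 2. *LCAT* with *LRP1* (0.68) fell to 0.29 without the same pool. In 4 of the 28 pairs the sign changed without the pair of pools farthest from the median. *LRP1* correlated with the mean log2 level of the hepatocyte markers by r = -0.86 (rho = -0.81, exact p = 0.00702 and 0.0218, or 0.281 and 0.436 adjusted over 80 relations). Without control pool 3 and squalene pool 1, r was -0.75.

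The genes whose pattern was most like that of 7 of the genes were sought by Pearson r over the 8 pools among 10288 named genes averaging 1 FPKM or more. With 8 pools and so many genes, high values are found for any gene. For *ABCG1* they were the urea cycle gene *OTC* (0.93) and *OGDHL* (0.93), for *LCAT* *CREBRF* (0.96) and *ZMYND11* (0.95), and for *PLTP* the lysosomal thioesterase *PPT1* (0.96) and *COL18A1* (0.95). For *LIPC* they were *ECM2* (0.98) and *TMEM261* (0.96), for *LPL* *AHNAK* (0.98) and *PRKAA2* (0.98), a catalytic subunit of AMP-activated kinase. For *SCARB1* they were *NUCB1* (0.97) and the hepatocyte transcription factor *ONECUT1* (0.96), and for *LRP1* the desmosomal *PKP2* (0.98) and *TMEM104* (0.98). None of the 8 genes was among those named here.

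The surrounding pathway was described by 7 lists of 82 genes, of which 77 were measured and 75 tested (*APOC1*, *SAA1*, *CETP*, *ATP5F1B* and *APOL3* were not found by symbol). With limma, 0 of 75 passed an adjusted p of 0.05 and 4 (5.33%) had an unadjusted p under 0.05, namely *APOA2*, *APOM*, *APOD* and *CES1*. The estimates were above 0 in 33 and below 0 in 42, with a median of -0.02. Groups did not overlap for 4 genes, *APOA2* and *APOM* higher with squalene and *CES1* and *STAB1* lower, where 1.13% of all tested genes were higher and 1.54% lower without overlap.

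**Figure D5:**
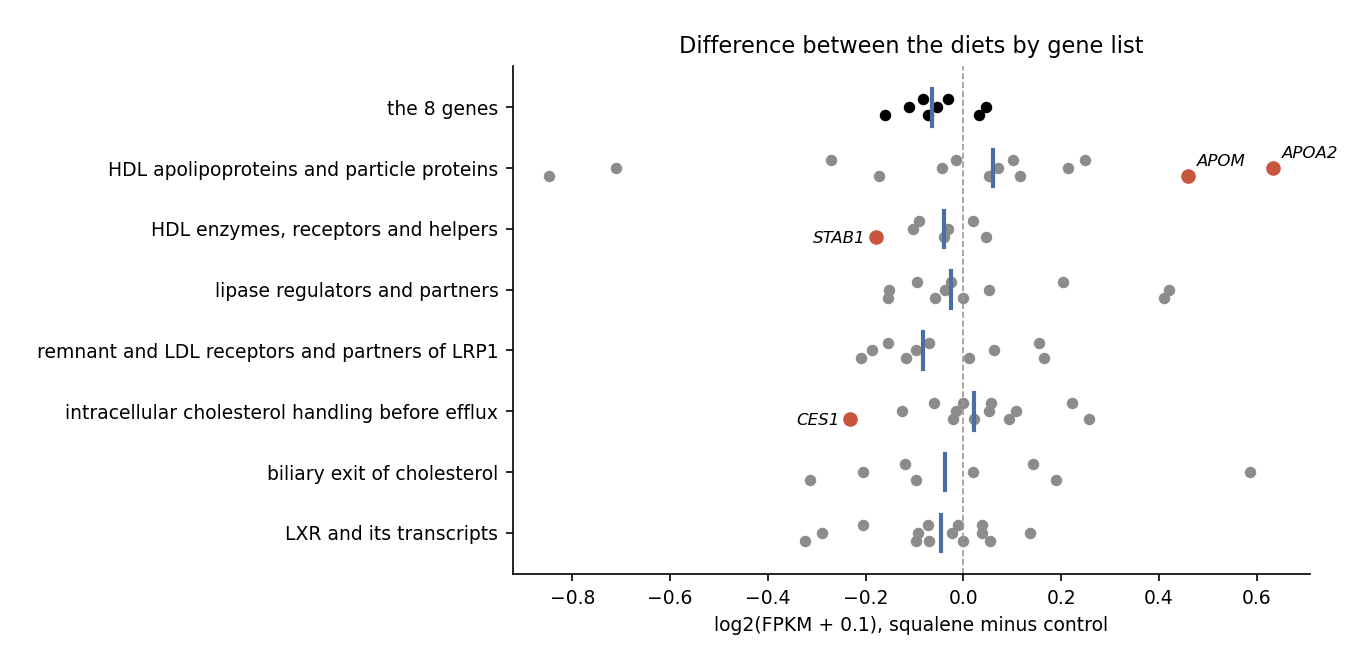
Log2 difference, squalene minus control, of the 8 genes (black) and of the tested genes of each pathway list (grey, or red for the 4 genes whose groups did not overlap), with the median of each list as a blue line. The 8 genes lie between -0.16 and 0.05, and *APOA2* (0.63) and *APOM* (0.46) lie to the right of the other HDL proteins.

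Among the 14 tested HDL apolipoproteins and particle proteins, 8 lay above and 6 below 0 (median 0.06). *APOM*, which carries sphingosine-1-phosphate on HDL, had 110.73, 104.26, 131.03 and 122.80 FPKM in control and 152.47, 176.93, 172.52 and 143.30 in squalene. All squalene pools thus lay above all control pools. The log2 difference was 0.46 ± 0.11 (SE), with a limma adjusted p of 0.953 and an exact permutation p of 0.0286, the smallest that 4 against 4 pools allow. Every gene whose groups do not overlap, 2.67% of those tested, has this exact p. It thus restates the lack of overlap and is no further support. *APOA2*, a major HDL apolipoprotein, showed 0.63 ± 0.11 (SE; limma adjusted p = 0.731, exact permutation p = 0.0286). *APOE*, the ligand of *LRP1* on remnants, had 7409 ± 1016 and 6114 ± 535 FPKM (SD, n = 4 each) and a log2 difference of -0.27 ± 0.15 (limma adjusted p = 0.9997). *APOD*, named after its values were seen, had 0.38 to 1.01 FPKM in control and 0.15 to 0.43 in squalene (-0.85 ± 0.33, SE, limma adjusted p = 0.9997). *APOC3*, an inhibitor of LPL, was at 15009 ± 1388 and 16139 ± 1888 FPKM.

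The lists next to the enzymes and receptors were close to 0. Of 7 tested HDL enzymes, receptors and helpers 2 lay above 0 (median -0.04). *PDZK1*, the adaptor that keeps SR-BI on the hepatocyte surface, was at 45.0 ± 4.63 and 45.6 ± 3.68 FPKM, and *P2RY13*, a receptor tied to hepatic HDL uptake, ranged from 1.86 to 6.77 FPKM with both extremes in squalene. *STAB1*, a scavenger receptor of sinusoidal endothelium and macrophages, had 5.58 to 7.24 FPKM in control and 5.36 to 5.57 in squalene, ranges that nearly touch. *CD36* did not pass either (log2 difference 0.05 ± 0.32, SE).

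Of the 11 lipase regulators and partners 4 lay above 0 (median -0.03). *APOA5*, an activator of LPL, had 644 ± 219 and 852 ± 213 FPKM (0.42 ± 0.25, SE), and *LMF1*, the maturation factor of lipases, -0.15 ± 0.10. Of the 10 receptors and partners of LRP1 4 lay above 0 (median -0.08). The log2 differences were 0.06 ± 0.11 for *LRPAP1*, the chaperone of LRP1, -0.15 ± 0.13 for *VLDLR*, -0.21 ± 0.20 for the sorting receptor *SORT1*, and -0.07 ± 0.11 for the heparan sulfate proteoglycan *SDC1*.

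Of the 13 genes that handle cholesterol inside the cell 7 lay above 0 (median 0.02). *CES1*, a carboxylesterase, had 409.67, 408.34, 401.41 and 503.02 FPKM in control and 383.86, 354.12, 377.33 and 345.44 in squalene. All squalene pools lay below all control pools, and control pool 4 stood above the rest. The log2 difference was -0.23 ± 0.10 (SE; limma adjusted p = 0.9997, exact permutation p = 0.0286). *LIPA*, the lysosomal acid lipase, showed 0.09 ± 0.14, and *GRAMD1A*, which moves cholesterol to the endoplasmic reticulum, 0.26 ± 0.13.

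Of the 8 genes of biliary exit 4 lay above 0 (median -0.04), and of the 14 LXR genes and transcripts 4 (median -0.05). *SCP2*, a sterol carrier, had 0.19 ± 0.11, *CYP27A1*, of the alternative bile acid pathway, 0.02 ± 0.13, and *CYP8B1*, of cholic acid synthesis, 0.59 ± 0.50 at only 0.78 to 5.35 FPKM. *NR1H3*, which encodes LXR alpha, was at 97.2 ± 4.99 and 99.9 ± 6.19 FPKM (0.04 ± 0.09, SE). The lipogenic LXR targets *FASN* and *SCD* showed -0.32 ± 0.26 and -0.29 ± 0.26. *SCD* was highest in control pool 2 (354.16 FPKM), where *ABCA1* and *ABCG1* were highest too, and lowest in control pool 3 (129.31). Control pool 1 followed with 251.76 FPKM of *SCD*, yet it had the lowest *ABCG1* (2.23) and a low *ABCA1* (10.91). Covariation of *SCD* with these genes was not tested.

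The same libraries gave 2 further readouts. The tables of alternative splicing listed 61 events, of which 0 lay in the 8 genes. The tables of single nucleotide polymorphisms held 154 sites within the 8 gene bodies, 83 of them in exons, and the reference base equalled that of the assembly at 154 of 154. A site counts for a pool when its called base differs from the reference. Each pool holds other animals, so the counts describe those animals and no test was run.

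Over the 8 genes, 83, 84, 80 and 71 sites were called in control pools 1 to 4 and 63, 72, 69 and 73 in squalene pools 1 to 4 (79.5 ± 5.92 and 69.25 ± 4.5, SD, n = 4 each). These counts overlapped between the diets. In exons, where all sites were covered in every pool, the control pools had 65 to 68 and the squalene pools 52 to 64, without overlap. Without *LPL*, the exonic counts of the diets overlapped too. As a share of covered sites, the calls in the 8 gene bodies were 71.7% to 76.9% in control and 59.4% to 72.3% in squalene. In exons the share was 78.3% to 81.9% and 62.7% to 77.1%. Over all 269579 sites of the series, exonic or not, the share was 53.0% to 55.3% in control and 51.9% to 53.1% in squalene. *LPL* took up much of the difference, and squalene pool 1 most of that, with 3 of the 22 exonic sites called, against 20, 18, 10 and 18 in the control pools and 19, 11 and 16 in squalene pools 2 to 4. *ABCA1* was called at 17 of 17 exonic sites in control pool 3 and at 11 to 14 in the other pools. *LRP1* had 25 to 30 of 30 exonic calls in control and 24 to 29 in squalene. *LCAT*, *SCARB1*, *LIPC*, *ABCG1* and *PLTP* held 1 to 8 exonic sites each.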

How the data were processed

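Liver RNA pools were sequenced on the DNBSEQ platform after poly(A) selection, and the authors aligned clean reads to Sscrofa11.1 with HISAT2. Expression was deposited as FPKM for every pool, and the tool that computed it was not given in the sources used. From the authors' table of the diet comparison, only the gene length and the estimated counts, which the authors had summed within each diet, were used, and its fold changes, p-values and q-values were not. Base letters per SNP site and lists of splicing events were used as deposited.

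The members and lists were chosen with earlier results of these data known. Differences were fitted with limma 3.58.1 in R 4.3.3 (eBayes, mean-variance trend, no block) for log2(FPKM + 0.1), with Benjamini-Hochberg adjustment. The fit covered the 14780 genes averaging 0.1 FPKM or more. This procedure was tried on simulated data whose changes were larger than the differences of the 8 genes. That trial thus does not show whether changes of their size would be found. Fold changes are on that scale and are understated for low genes. Single values and correlations had exact permutation tests (Python 3.11.15, numpy 2.4.6, scipy 1.17.1). Named genes were the 8 members, from each list the 2 genes with the smallest p and the 2 with the highest mean, the 2 genes most like each member, and the 3 pairs of largest r. Some results that this rule names are not reported here. Alternatives were other pseudocounts (1 and 0.01), filters, scalings, variance models, a block and each pool left out. Coordinates and sequences are from RefSeq (Sscrofa11.1, release 106), in which 20331 of 20331 numbered gene identifiers were found. Positions count the start of the transcript as 1. Nothing says that libraries were prepared in batches.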

Additional observations from a re-analysis of the deposited data

Results flagged for a closer look

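Over 28 groups of 4 pools, 2 values lay far from the other pools of their diet, measured by the gap to the nearest pool as a share of the range. Chance alone gives about 1 in 20. *PLTP* in control pool 3 had 61.55 FPKM, and the gap was 0.909 of the range. *CES1* in control pool 4 had 503.02 FPKM, with a gap of 0.919.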

How the results depend on the processing

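Of 136 alternative values of the diet difference of the 8 genes, 124 kept their direction, 12 changed it, all with a pool left out, and 0 passed the threshold. With each pool left out, the log2 differences ranged from -0.0396 to 0.15 for *ABCA1*, -0.19 to 0.0920 for *ABCG1*, -0.16 to 0.0198 for *SCARB1*, -0.16 to -0.02 for *LCAT*, -0.0800 to 0.14 for *LIPC*, -0.14 to 0.0712 for *PLTP*, -0.47 to 0.0446 for *LPL* and -0.0865 to 0.0249 for *LRP1*. The count over all genes was 1 without a variance trend (adjusted p = 0.0448) and 0 to 1 with each pool left out (1 without control pool 2), for the uncharacterized *LOC110259523* and *LOC110256963*, named after their values were seen. The count of pairs at an adjusted p under 0.05 was 0 to 3, with 3 without control pool 3 (lowest adjusted p = 0.0241, the 3 named pairs) and 2 without squalene pool 1 (0.025, *ABCA1* with *LCAT* and *SCARB1* with *PLTP*). With each pool left out, r was 0.75 to 0.91 for *ABCA1* with *ABCG1*, -0.91 to -0.79 for *ABCA1* with *LIPC* and -0.94 to -0.70 for *SCARB1* with *PLTP*; the cause was not tested. The order of the levels gave 6 of 7 steps in TPM and with each pool left out, and the difference in SNP calls of -10.25 became -7.75 in exons and -8 at sites covered in all pools.

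No pairing of the pools by number was seen. Deviations of same-numbered pools correlated by -0.07 to 0.09, 0 of 4 over 0.1, and those of other numbers by -0.08 to 0.10. Of the 8 pools, 3 correlated best with their own number. So few pools cannot exclude a pairing. With the replicate block the count over all genes was 0, and *LPL* had -0.16 (limma adjusted p = 0.985), with no call changed. The intervals given are not adjusted for the number of genes. With 4 pools per diet, changes beyond them could also miss the adjusted threshold. *APOA2*, the listed gene with the smallest unadjusted limma p, had an interval of 30.04% to 85.3% and did not pass (limma adjusted p = 0.731). As it was named for its small p, this interval does not show a missed change.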
